A study of Mus musculus with 6 samples.

Results

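The genes described here encode the machinery that licenses origins of DNA replication and runs the replication fork. They are 41 genes out of 23228 in the deposited table, chosen by symbol from the known biochemistry of replication. Earlier results of these data were known when the choice was made. All 41 were found and all 41 averaged 1 FPKM or more across the 6 libraries, the level at which a gene was tested, so no member was left out of any count. The FPKM (fragments per kilobase of transcript, scaled to the mapped fragments of the library) divides reads by transcript length and library total, so levels of different genes can be set side by side.

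RNA was sequenced from LSK cells, the lineage-negative, Sca-1+, c-Kit+ fraction of mouse bone marrow that contains hematopoietic stem cells and multipotent progenitors. In every sample the donor cells were wild type, carried the Ly5.1 marker, and were sorted 8 weeks after transplantation. The recipients, which carried Ly5.2, were either ICAM-1-/- mice (3 libraries) or WT mice (3 libraries), and the labels give C57BL/6 as the strain of all samples. ICAM-1 is an adhesion molecule that binds leukocyte integrins, and it was absent from the host and not from the sorted cells. The series title places the question in stem cell quiescence. The genotype label of the first group reads ICAM-1-/-, and the series' design text assigns it to the recipients. The sources used here give neither age nor conditioning of the recipients, nor do they say whether animals were pooled, so p-values measure the spread between 3 libraries a group.

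Replication is licensed in G1, when the origin recognition complex, Cdc6 and Cdt1 load the ring-shaped MCM2-7 helicase onto DNA. In S phase Cdc45 and the GINS complex join the ring to make the active helicase, and primase, DNA polymerases, the sliding clamp PCNA and its loader follow the fork. Many of these genes are transcribed under E2F control as cells enter the cycle, and long-term stem cells, which are mostly quiescent, are known for low levels of them compared with cycling progenitors.

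The promoters of the members carry a shared sequence feature. They are shown because E2F binding is the textbook link between these genes and cell cycle entry. RefSeq promoter windows on GRCm38.p6, from 250 bases before to 50 after each gene start, matched 33 of the 41 members. The E2F consensus was searched on both strands as TTTCCCGC, TTTCGCGC, TTTGCCGC and TTTGGCGC, words that can overlap each other on opposite strands. At least 1 of them was found in 15 of 33 members (45.5%), against 5.12% of the 7573 tested genes with a window and 2.60% of all 27025 genes with a window. The CCAAT box was found in 63.6% of members, against 43.6% of tested genes and 41.1% of all genes. The Sp1 word GGGCGG was found in 75.8% of members, against 69.7% of tested genes and 38.2% of all genes. A match is a description of the letters and not a measured binding site. The stretches below lie before the RefSeq gene start in ring, origin recognition and polymerase members, are written 5′ to 3′ on the gene's own strand, and carry the E2F words in capitals.
Mcm5, chr8:75109334-75109389, plus strand: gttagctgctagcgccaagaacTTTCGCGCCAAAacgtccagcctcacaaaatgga
Mcm6, chr1:128359782-128359837, minus strand: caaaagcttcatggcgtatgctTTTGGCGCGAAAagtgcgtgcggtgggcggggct
Orc3, chr4:34614954-34615005, minus strand: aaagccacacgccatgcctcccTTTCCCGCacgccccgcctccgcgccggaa
Pola1, chrX:93632264-93632315, minus strand: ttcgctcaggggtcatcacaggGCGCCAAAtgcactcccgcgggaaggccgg

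In Mcm5 and Mcm6 the words on the 2 strands overlap, so that the capitals form a single run. The other members with a word were Mcm3, Mcm7, Orc1, Cdc6, Cdt1, Gins3, Pold1, Pold3, Pole2, Rfc3 and Lig1.

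The libraries were uneven, and this touches every result below. The share of the 10477 tested genes listed at 0 was 10.7%, 10.2% and 0.735% across ICAM-1-/- replicates 1 to 3, against 39.6%, 1.38% and 1.82% across WT replicates 1 to 3. Small RNA genes took 55.1%, 30.2% and 44.8% of the summed FPKM in ICAM-1-/-, against 72.1%, 26.1% and 32.5% in WT. Markers of macrophages, which a lineage-negative gate should remove, summed over the 7 matched genes to 813, 29.9 and 102 FPKM across ICAM-1-/- replicates 1 to 3, and to 1657, 71.3 and 23.3 FPKM across WT replicates 1 to 3. Of the 7, 6 exceeded 10 FPKM in at least 1 of the replicate 1 libraries, with C1qb at 258 FPKM in ICAM-1-/- and 570 FPKM in WT. Of the gate's own markers, Kit ranged from 6.88 to 44.7 FPKM in ICAM-1-/- and from 10.2 to 28.7 FPKM in WT. Ly6a (Sca-1) ranged from 12.4 to 91.8 FPKM in ICAM-1-/-. In WT it was listed at 0 in replicate 1 and had 20.8 and 57.7 FPKM in replicates 2 and 3. The T cell gene Cd3e was low, at no more than 0.593 FPKM in any library. Icam1 had 32.1, 10.9 and 14.1 FPKM in ICAM-1-/- and 26.4, 9.12 and 7.97 FPKM in WT replicates 1 to 3, which says nothing about the labels because the donor cells carried the intact gene. The part of these library differences in the replication gene values was not tested, and for the replication genes given by library the differences within replicates 2 and 3, which leave the replicate 1 libraries out, are given too.

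The replication genes stood well above the typical gene in every library. Their median level was 23.2, 10.5 and 26.1 FPKM across ICAM-1-/- replicates 1 to 3 and 13.9, 19.7 and 18.8 FPKM in WT replicates 1 to 3. ICAM-1-/- replicate 2 was lowest, ICAM-1-/- replicate 3 highest, and the groups overlapped. Ranked among all tested genes of the same library, the median member sat at percentile 79.0, 76.4 and 78.7 in ICAM-1-/- and at 70.6, 78.6 and 78.2 in WT. On the log2(FPKM + 1) scale the median member lay above the median tested gene by 1.41, 1.64 and 1.29 in ICAM-1-/- and by 1.45, 1.29 and 1.33 in WT replicates 1 to 3. In ICAM-1-/- replicate 2 the median of all tested genes was low as well, and the distance of the members from it was the largest of the 6 libraries. In bulk RNA, fewer cells in cycle and less replication RNA per cell cannot be told apart.

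**Figure D1:**
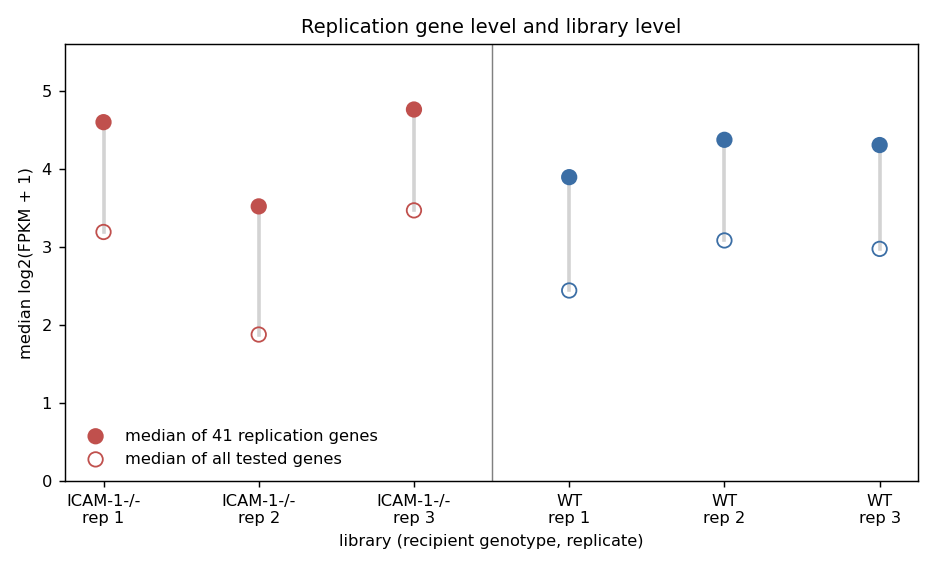
Median log2(FPKM + 1) of the 41 replication genes (filled) and of all 10477 tested genes (open) in each library, red for ICAM-1-/- and blue for WT recipients. The 2 medians move together: both are lowest in ICAM-1-/- replicate 2 and highest in ICAM-1-/- replicate 3, and the gap between them stays between 1.29 and 1.64.

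No replication gene was called different between cells taken from ICAM-1-/- recipients and those from WT recipients by limma, a linear model fitted to all tested genes on the log2(FPKM + 1) scale with Benjamini-Hochberg adjustment. The count of members at an adjusted p under 0.05 was 0 of 41, as it was for all genes (0%), and the smallest adjusted p of any member was 1.00. At an unadjusted p under 0.05 the count was 0 of 41, against 0.515% of all tested genes. The median difference of the members was 0.23, against 0.08 for all tested genes, with 30 of 41 above 0 (73.2%) against a background of 53.8%. Within replicates 2 and 3 the direction was the other way: 11 of 41 lay above 0 (26.8%), against 30.3% of all genes, and the medians were -0.30 for the members and -0.32 for all genes. No member had an unadjusted p under 0.05 there, where 1.63% of all genes did. With the replicate number as a block, 1 member of 41 had an unadjusted p under 0.05, against 2.65% of all genes, and 0 had an adjusted p under 0.05.

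The same-numbered libraries were also set side by side. ICAM-1-/- replicate 1 exceeded WT replicate 1 in 32 of 41 members (78.0%), against 60.0% of all tested genes. ICAM-1-/- replicate 2 exceeded WT replicate 2 in 10 of 41 (24.4%), against 16.5%. ICAM-1-/- replicate 3 exceeded WT replicate 3 in 36 of 41 (87.8%), against 83.1%. In all 3 pairs most members lay on the side where most tested genes lay. Cdc45, Pola2 and Prim2 were the 3 members above WT in every pair (7.32%), against 7.68% of all tested genes, and 1 member, Gins1, was below WT in every pair (2.44%), against 4.14%. Neither share exceeds its background.

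**Figure D2:**
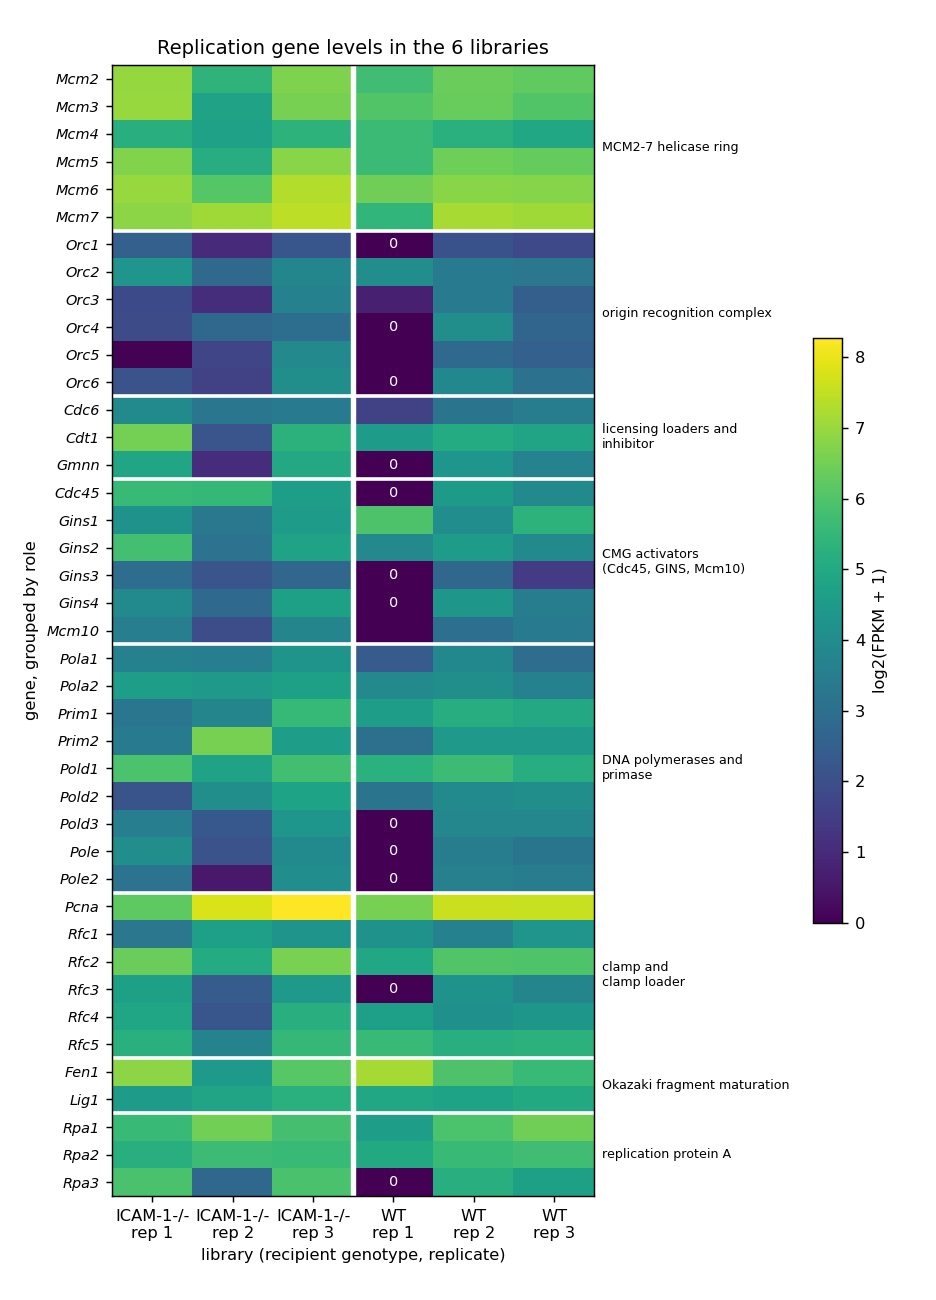
Level of each replication gene, as log2(FPKM + 1), in the 3 ICAM-1-/- libraries (left) and the 3 WT libraries (right), with genes in rows by role and a 0 where the value is listed as 0. ICAM-1-/- replicate 2 holds the lowest value of 13 genes, and WT replicate 1 holds the lowest value of 22 genes and all 12 zeros.

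Zeros were confined to WT replicate 1 among the 41 members. There 12 of 41 were listed at 0 (29.3%), against 39.6% of all tested genes, and in the other 5 libraries none was. These 12 were Orc1, Orc4, Orc6, Gmnn, Cdc45, Gins3, Gins4, Pold3, Pole, Pole2, Rfc3 and Rpa3. Orc5 and Mcm10 were above 0 but under 0.1 FPKM in that library, and Orc5 was also at 0.0332 FPKM in ICAM-1-/- replicate 1. All 14 had a difference above 0, with a median of 0.95, as a value near 0 in a WT library makes likely. The other 27 members had a median of 0.07, with 16 above and 11 below 0. All tested genes divided the same way: the 4613 under 0.1 FPKM in WT replicate 1 had a median of 0.70, with 3834 above 0, and the other 5864 had a median of -0.28, with 1801 above 0.

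The MCM2-7 ring, the helicase core, had the highest median level of the roles in ICAM-1-/- replicates 1 and 3 and in WT replicates 2 and 3. Mcm2 had 123, 40.3 and 99.7 FPKM across ICAM-1-/- replicates 1 to 3, and 52.1, 81.4 and 75.2 FPKM across WT replicates 1 to 3. Mcm3 had 127, 26.1 and 93.2 FPKM in ICAM-1-/-, and 63.4, 80.6 and 64.2 FPKM in WT. For both genes ICAM-1-/- replicates 1 and 3 lay above every WT library and ICAM-1-/- replicate 2 below every one. Mcm5 followed the same pattern, with 102, 34.4 and 110 FPKM in ICAM-1-/- and 48.3, 85.3 and 79.3 FPKM in WT. Mcm6 likewise had 127, 66.9 and 157 FPKM in ICAM-1-/- and 87.4, 109 and 108 FPKM in WT. For Mcm3 this gave 81.9 ± 51.1 FPKM in ICAM-1-/- and 69.4 ± 9.69 FPKM in WT (SD, n = 3 each), and the difference in spread was not tested.

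Mcm4 and Mcm7 departed from that pattern. Mcm4 had 35.3, 25.6 and 39.6 FPKM in ICAM-1-/- and 48.2, 36.7 and 30.4 FPKM in WT, with the groups overlapping and WT replicate 1 highest. Mcm7 had 113, 134 and 174 FPKM in ICAM-1-/- and 42.9, 145 and 134 FPKM in WT, with WT replicate 1 far below the other 5 libraries. ICAM-1-/- replicate 2, low for the other subunits, was level with WT for Mcm7. The differences in log2(FPKM + 1), ICAM-1-/- minus WT, were 0.21 ± 0.71 (SE) for Mcm2, -0.024 ± 0.76 for Mcm3, -0.19 ± 0.67 for Mcm4, 0.08 ± 0.73 for Mcm5, 0.12 ± 0.68 for Mcm6 and 0.54 ± 0.73 for Mcm7. All 6 were smaller than their standard errors. Those of Mcm3 and Mcm4 turned positive under median-of-ratios scaling, and that of Mcm5 turned negative when small RNA genes were left out of the total. Within replicates 2 and 3 the ring had a median difference of -0.19, with 5 of 6 subunits below 0, at -0.30 for Mcm2, -0.53 for Mcm3, -0.065 for Mcm4, -0.41 for Mcm5 and -0.081 for Mcm6, and 0.13 for Mcm7.

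The order of the ring subunits was the same in 3 libraries. ICAM-1-/- replicate 3 and WT replicates 2 and 3 all ran Mcm7, Mcm6, Mcm5, Mcm2, Mcm3 and Mcm4 from highest to lowest level. In ICAM-1-/- replicate 2 Mcm7 and Mcm6 also led and Mcm4 was also last. Both replicate 1 libraries instead ran Mcm6, Mcm3, Mcm2 from the top. The highest subunit exceeded the lowest by 3.60-, 5.25- and 4.39-fold in ICAM-1-/- replicates 1 to 3, and by 2.04-, 3.95- and 4.43-fold in WT replicates 1 to 3. The ring proteins assemble in equal numbers, and the RNA levels were not equal in any library. The summed ring level was 626, 328 and 673 FPKM in ICAM-1-/- and 342, 538 and 491 FPKM in WT, so that ICAM-1-/- replicate 2 and WT replicate 1 were the low libraries and the groups overlapped. Of the 31-base words of Mcm7, 47.6% also occur in other annotated genes, mainly the processed pseudogene Gm5487, and its exons overlap Cops6, Ap4m1, Mir25 and Mir93, so its level is less certain than those of the other 5 subunits, of which none shared more than 5.34%.

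**Figure D3:**
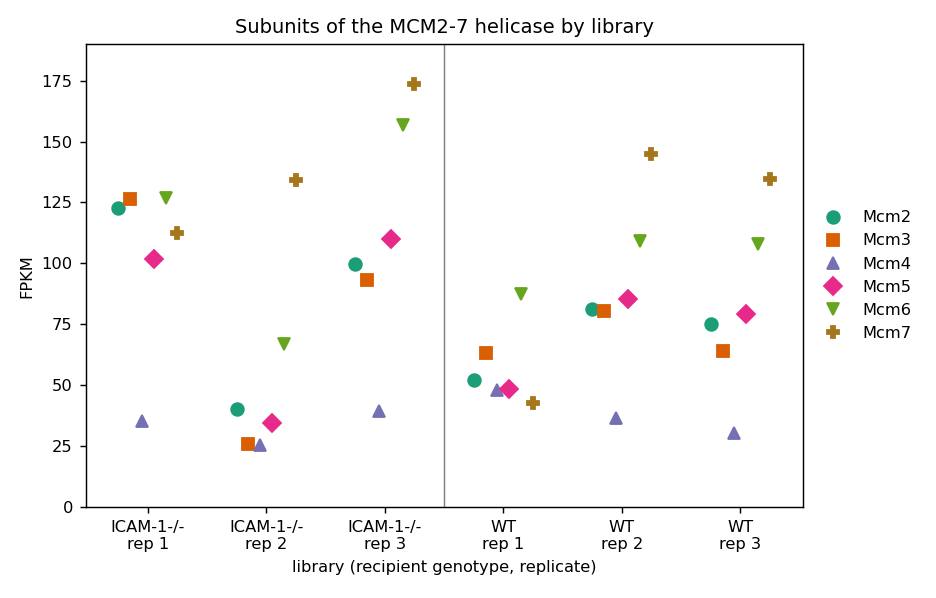
FPKM of the 6 subunits of the MCM2-7 helicase in each library, ICAM-1-/- recipients left and WT recipients right, 1 point per gene and library. Mcm7 leads in ICAM-1-/- replicates 2 and 3 and in WT replicates 2 and 3, and drops to the lowest place, at 42.9 FPKM, in WT replicate 1.

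The origin recognition complex, which marks origins and starts loading, had the lowest median level of the roles in every library except WT replicate 1, where the Cdc45 and GINS group was lower. Orc1, the subunit whose protein level varies most through the cell cycle, had 4.85, 1.03 and 3.65 FPKM in ICAM-1-/- and 0, 3.21 and 2.54 FPKM in WT replicates 1 to 3. Orc4 had 2.71, 5.99 and 6.93 FPKM in ICAM-1-/- and 0, 15.9 and 5.54 FPKM in WT. Orc6 had 3.35, 1.9997 and 16.1 FPKM in ICAM-1-/- and 0, 13.5 and 7.68 FPKM in WT. All 3 were listed at 0 in WT replicate 1, so no ICAM-1-/- value could lie below the WT range. Orc1 in ICAM-1-/- replicates 1 and 3 and Orc6 in ICAM-1-/- replicate 3 exceeded every WT library. The differences were 0.63 ± 0.93 for Orc1, 0.30 ± 1.11 for Orc4 and 0.27 ± 1.18 for Orc6 (log2 scale, SE), and all 3 were negative within replicates 2 and 3, at -0.33, -0.50 and -0.65. Over the 6 subunits the median was 0.19, with Orc2, Orc3 and Orc5 between -0.032 and 0.10. The level of Orc2, whose exons overlap Nif3l1, reached 19.0 FPKM in ICAM-1-/- replicate 1 and 16.0 FPKM in WT replicate 1, the highest in each group.

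The loading factors are Cdc6 and Cdt1, and geminin (Gmnn) inhibits Cdt1. Cdt1 had 91.7, 3.49 and 38.8 FPKM across ICAM-1-/- replicates 1 to 3, and 22.9, 32.7 and 27.1 FPKM in WT. Gmnn had 28.7, 1.10 and 30.9 FPKM in ICAM-1-/-, and 0, 19.1 and 11.8 FPKM in WT. ICAM-1-/- replicates 1 and 3 exceeded every WT library for both genes, and ICAM-1-/- replicate 2 lay below every WT library for Cdt1 and below WT replicates 2 and 3 for Gmnn. Cdt1 exceeded Gmnn by 3.20-, 3.17- and 1.25-fold in ICAM-1-/- replicates 1 to 3 and by 1.71- and 2.30-fold in WT replicates 2 and 3. Cdc6 varied less, with 14.2, 8.46 and 9.27 FPKM in ICAM-1-/- and 2.03, 8.09 and 10.3 FPKM in WT, where WT replicate 1 alone stood apart. The differences were -0.15 ± 1.03 for Cdt1, 0.98 ± 1.36 for Gmnn and 0.75 ± 0.86 for Cdc6 (log2 scale, SE), and within replicates 2 and 3 they were -1.20, -0.97 and -0.038. That of Cdt1 was 0.06 under median-of-ratios scaling.

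Cdc45, which joins the loaded ring to form the active helicase, had the smallest p of the 41 members. It had 46.5, 44.0 and 23.3 FPKM across ICAM-1-/- replicates 1 to 3, and 0, 21.8 and 14.1 FPKM in WT replicates 1 to 3. Every ICAM-1-/- library lay above every WT library, although ICAM-1-/- replicate 3 and WT replicate 2 were close. The difference was 2.41 ± 1.12 (log2 scale, SE) with an unadjusted limma p of 0.0541 and a limma adjusted p of 1.00. With the replicate number as a block the unadjusted limma p was 0.0117 and the limma adjusted p was 1.00. Within replicates 2 and 3, without the 0 of WT replicate 1, the difference was 0.83.

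Cdc45 and Pola2, the regulatory subunit of the DNA polymerase alpha and primase complex, were the members whose groups did not overlap. Pola2 had 23.2, 21.1 and 25.2 FPKM in ICAM-1-/- and 13.9, 16.1 and 11.3 FPKM in WT, or 23.2 ± 2.06 FPKM against 13.8 ± 2.39 FPKM (SD, n = 3 each). Neither group spanned as much as the gap between the group means. The difference was 0.72 ± 0.69 (log2 scale, SE; limma adjusted p = 1.00) over all 6 libraries and 0.73 within replicates 2 and 3. The SE comes from limma, which draws each gene's spread toward that of genes of like level. Members with every ICAM-1-/- library above every WT library numbered 2 of 41 (4.88%), against 3.23% of all tested genes. Members with every ICAM-1-/- library below every WT library numbered 0 of 41, against 0.849% of all tested genes.

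The GINS subunits, partners of Cdc45, had differences on either side of 0. Gins1 had 17.9, 9.01 and 22.3 FPKM in ICAM-1-/- and 60.4, 15.5 and 40.0 FPKM in WT, so that each ICAM-1-/- library lay below the WT library of the same number, while the groups overlapped. Its difference was -1.08 ± 0.78 (log2 scale, SE), the lowest of the 41, and -0.77 within replicates 2 and 3. Gins3 had 6.74, 3.50 and 5.58 FPKM in ICAM-1-/- and 0, 5.96 and 1.76 FPKM in WT, overlapping, with a difference of 1.19 ± 0.97 that was 0.31 within replicates 2 and 3. Gins2 and Gins4, with Mcm10, a scaffold protein of the fork, had differences of 0.43, 1.20 and 0.92, which within replicates 2 and 3 were -0.30, -0.18 and -0.37. The level of Gins2 is uncertain, as 70.5% of the 31-base words of its longest transcript also occur in other genes, mainly in the overlapping gene Gse1.

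The polymerases and primase make the new strands. Prim2, the large primase subunit, had 9.90, 94.2 and 24.0 FPKM in ICAM-1-/- and 7.29, 20.7 and 20.9 FPKM in WT. It was higher in ICAM-1-/- in all 3 same-numbered pairs, and ICAM-1-/- replicate 2, low for most members, was far above all other libraries. Its difference was 0.91 ± 0.92 (log2 scale, SE), 1.16 within replicates 2 and 3, and 0.063 without ICAM-1-/- replicate 2. Pole, the catalytic subunit of the leading strand polymerase, had 15.8, 3.34 and 14.6 FPKM in ICAM-1-/- and 0, 10.02 and 8.33 FPKM in WT. Its groups overlapped, and its difference of 1.16 ± 1.11 became -0.30 within replicates 2 and 3. The remaining 6 members of the group, Pola1, Prim1, Pold1, Pold2, Pold3 and Pole2, had differences from -0.74 for Prim1 to 0.83 for Pold3.

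The sliding clamp gene Pcna had 73.9, 219 and 307 FPKM in ICAM-1-/- and 94.5, 193 and 191 FPKM in WT, and was the most abundant member in replicates 2 and 3 of both groups. Both replicate 1 libraries were low and the groups overlapped (difference 0.17, and 0.43 within replicates 2 and 3, log2 scale). Reads of Pcna may be shared with processed pseudogenes, since 38.0% of its 31-base words occur in other genes, mainly Pcna-ps2. The clamp loader subunits Rfc1 to Rfc5 had differences on either side of 0. Rfc3 had 25.2, 4.27 and 21.3 FPKM in ICAM-1-/- and 0, 17.4 and 12.5 FPKM in WT, for a difference of 1.21 ± 1.19 (log2 scale, SE), which was -0.54 in replicates 2 and 3 alone. Rfc5 had 36.9, 11.99 and 44.0 FPKM in ICAM-1-/- and 46.1, 36.0 and 39.0 FPKM in WT, a difference of -0.55 ± 0.74, which was -0.67 in replicates 2 and 3. Rfc2 had 81.6, 33.0 and 96.6 FPKM in ICAM-1-/- and 30.2, 64.5 and 61.9 FPKM in WT, a difference of 0.36 ± 0.73, which was -0.16 in replicates 2 and 3. All 3 had their groups overlapping, with ICAM-1-/- replicate 2 the lowest ICAM-1-/- library. Of the 31-base words of Rfc2, 22.9% occur in other genes, mainly the overlapping gene Lat2. For Rfc5 the share was 16.3%, mainly in the processed pseudogene Gm12870, so both levels are less certain.

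Fen1 and Lig1 finish Okazaki fragments. Fen1, the flap nuclease, had 112, 21.03 and 68.3 FPKM in ICAM-1-/- and 140, 60.8 and 46.5 FPKM in WT, a difference of -0.42 ± 0.82 (log2 scale, SE) and of -0.47 in replicates 2 and 3 alone, with both replicate 1 libraries highest in their groups. Of its 31-base words 82.2% occur in other genes, mainly the antisense gene Gm10143, so its level is uncertain. Lig1, the ligase that seals the fragments, had 22.8, 27.6 and 36.5 FPKM in ICAM-1-/- and 29.8, 26.8 and 31.7 FPKM in WT. All 6 libraries lay between 22.8 and 36.5 FPKM, with a difference of -0.043 ± 0.67 that was 0.12 within replicates 2 and 3 and 0.23 under median-of-ratios scaling.

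Replication protein A, which coats single-stranded DNA, had subunits with unlike patterns. Rpa1, the large subunit, had 47.1, 90.8 and 55.6 FPKM in ICAM-1-/- and 23.7, 60.3 and 86.9 FPKM in WT. Rpa2, the middle subunit, had 35.2, 49.9 and 48.0 FPKM in ICAM-1-/- and 31.6, 46.4 and 51.9 FPKM in WT. Both overlapped between groups, and for both ICAM-1-/- replicate 2 was the highest ICAM-1-/- library. The small subunit Rpa3 had 58.1, 5.99 and 59.0 FPKM in ICAM-1-/- and 0, 36.3 and 24.7 FPKM in WT, with ICAM-1-/- replicate 2 far below the other ICAM-1-/- libraries. The differences were 0.30 ± 0.74 for Rpa1, 0.05 ± 0.66 for Rpa2 and 1.57 ± 1.37 for Rpa3 (log2 scale, SE). That of Rpa2 was -0.056 with small RNA genes left out, and within replicates 2 and 3 the differences were -0.027 for Rpa1, -0.0043 for Rpa2 and -0.59 for Rpa3.

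**Figure D4:**
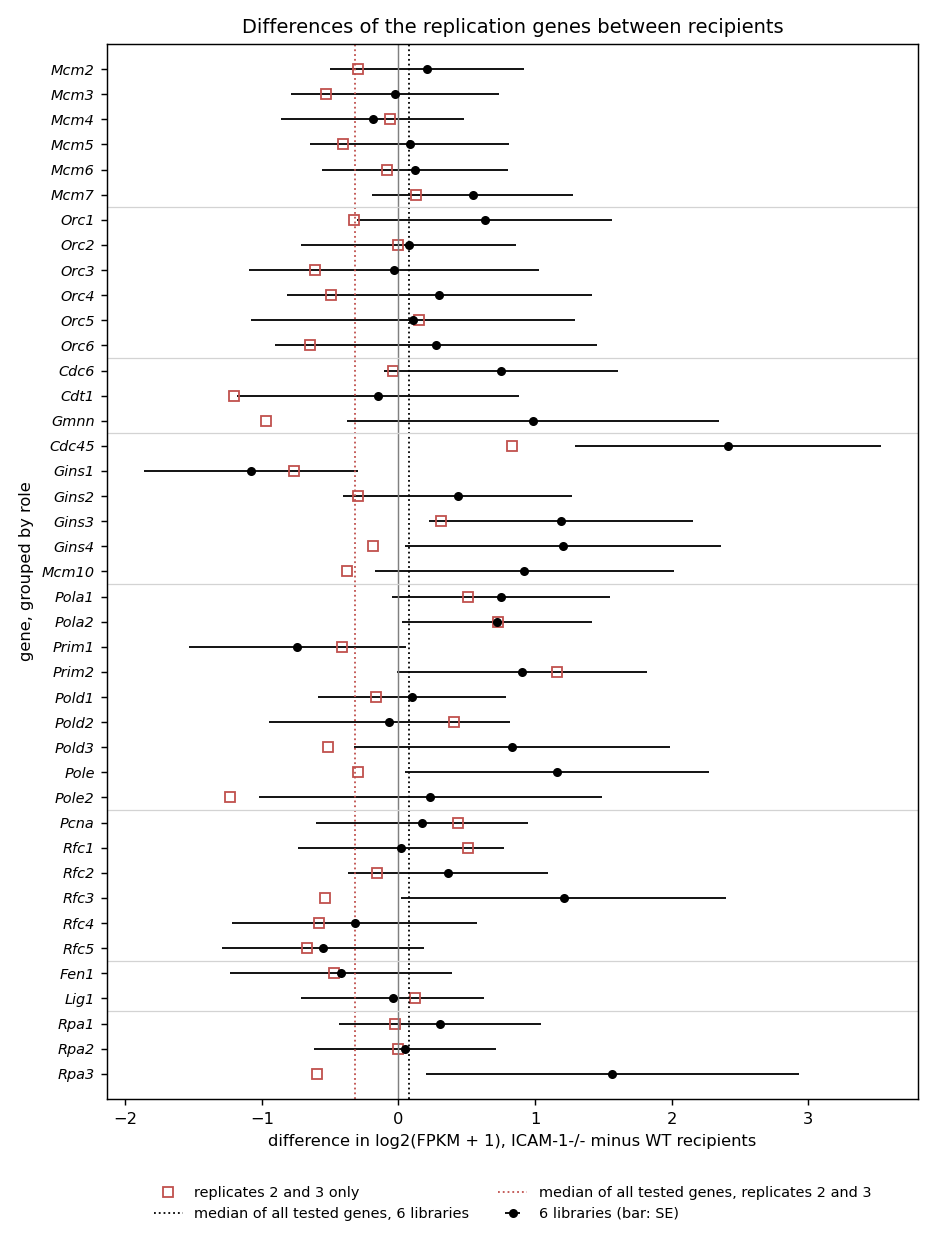
Difference in log2(FPKM + 1), ICAM-1-/- minus WT recipients, for each replication gene over all 6 libraries (black points, bars are limma's SE) and over replicates 2 and 3 (red squares), with dotted lines at the medians of all tested genes. Most red squares lie left of the black points: the members' median was 0.23 over 6 libraries and -0.30 over replicates 2 and 3, near the all-gene medians of 0.08 and -0.32.

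Members were also divided by the E2F words in their promoter windows. The 15 with a word had a median difference of 0.23, with 11 above 0, and the 18 without had 0.14, with 13 above 0. Within replicates 2 and 3 the medians were -0.33 and -0.16. The 15 with a word had median levels of 22.8, 8.46 and 21.3 FPKM in ICAM-1-/- and 4.201, 17.4 and 13.1 FPKM in WT replicates 1 to 3. For the 18 without, the median levels were 25.7, 14.2 and 30.9 FPKM in ICAM-1-/- and 17.0, 19.3 and 19.3 FPKM in WT. In WT replicate 1, Orc1, Gins3, Pold3, Pole2 and Rfc3 of the first set were listed at 0. So were Orc4, Orc6, Cdc45 and Rpa3 of the second. The difference between the 2 sets was not tested.

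Across the 41 members, levels in ICAM-1-/- replicate 3 tracked those in WT replicates 2 and 3 closely, with Pearson correlations of 0.96 and 0.94 on the log2 scale, and WT replicates 2 and 3 correlated at 0.94. ICAM-1-/- replicates 1 and 2 correlated with each other at 0.59 over the members, the lowest of the 15 library pairs. WT replicate 1, at 0.35 to 0.38 with WT replicates 2 and 3 over all tested genes, reached 0.73 and 0.81 with them over the members. Genes are not independent replicates here, and each pair of values shares the level of its gene.

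Genes that work beside the members are given by list. None of the origin firing factors was called in either direction (0 of 7 tested, median -0.31). Dbf4, the activating subunit of the Cdc7 kinase, had a difference of -1.06, which was -0.74 within replicates 2 and 3, and levels of 5.03, 1.21 and 11.2 FPKM in ICAM-1-/- and 18.4, 7.32 and 8.07 FPKM in WT. Donson, a factor that helps load the helicase activators, was listed at 0 in WT replicate 1 and had a difference of 0.94, which was -0.092 within replicates 2 and 3. None of the 23 fork accessory factors was called (median -0.24). Among them Rnaseh2c, a subunit of the nuclease that removes ribonucleotides from DNA, had 101, 112 and 60.2 FPKM in ICAM-1-/- and 0, 31.2 and 31.1 FPKM in WT, without overlap, and a difference of 3.14 ± 1.21 (log2 scale, SE; limma adjusted p = 1.00), which was 1.37 within replicates 2 and 3. Pole4, an accessory subunit of polymerase epsilon, was also listed at 0 in WT replicate 1, and its difference of 1.32 was 0.23 within replicates 2 and 3.

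None of the 10 nucleotide supply genes was called (median 0.03). Rrm2, the regulated subunit of ribonucleotide reductase, had 67.8, 6.00 and 53.4 FPKM in ICAM-1-/- and 70.8, 62.1 and 61.5 FPKM in WT, where ICAM-1-/- replicate 2 alone stood apart, and differences of -1.15 over 6 libraries and -1.69 within replicates 2 and 3. Tyms, thymidylate synthase, had a difference of -1.19, which was -0.67 within replicates 2 and 3. Dctpp1, which clears abnormal nucleotides, was listed at 0 in WT replicate 1, and its difference of 1.96 turned to -0.40 within replicates 2 and 3. None of the 13 E2F and pocket protein genes was called (median -0.054). E2f5, a repressor of the family, had 2.09, 0 and 1.60 FPKM in ICAM-1-/- and 7.59, 2.40 and 8.97 FPKM in WT, without overlap, and a difference of -1.73 ± 0.92 (log2 scale, SE; limma adjusted p = 1.00), which was -1.85 within replicates 2 and 3. For E2f2 the values were -1.11 and -1.63.

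None of the 10 S phase cyclins and proliferation markers was called (median 0.03). Mki67, the Ki-67 proliferation antigen, had 25.1, 10.3 and 21.9 FPKM in ICAM-1-/- and 11.1, 18.5 and 17.4 FPKM in WT. It showed the pattern of Mcm2, Mcm3 and Mcm5, with ICAM-1-/- replicates 1 and 3 above every WT library and ICAM-1-/- replicate 2 below every one. Its difference was 0.21, and -0.24 within replicates 2 and 3. Cyclin E2 (Ccne2) had a difference of -2.11, which was -1.44 within replicates 2 and 3. Survivin (Birc5) was listed at 0 in WT replicate 1, and its difference of 1.79 turned to -0.15 within replicates 2 and 3. Within replicates 2 and 3 the medians of these 5 lists lay between -0.33 and -0.54, against -0.32 for all tested genes.

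Markers of other cells differed between libraries, and their part in the replication gene values was not tested. Those of erythroblasts, a strongly cycling cell type, summed to 38.4, 13.9 and 82.2 FPKM in ICAM-1-/- and to 75.6, 60.6 and 99.6 FPKM in WT, again lowest in ICAM-1-/- replicate 2. The list named for mature myeloid cells summed to between 737 and 2251 FPKM in ICAM-1-/- and between 867 and 2848 FPKM in WT. It includes Elane, a granule gene of myeloid progenitors, at 321 to 1799 FPKM in ICAM-1-/- and 155 to 1124 FPKM in WT. In ICAM-1-/- replicate 1 Elane held 1799 of the 2036 FPKM, with Ltf and S100a9 listed at 0. That sum is therefore not a measure of mature cells alone. Markers of lymphocytes summed to between 2.12 and 25.6 FPKM in ICAM-1-/- and between 0.0634 and 50.7 FPKM in WT. Those of stroma and endothelium summed to between 4.38 and 31.2 FPKM in ICAM-1-/- and between 23.3 and 49.0 FPKM in WT. Pecam1 alone held 21.8, 4.29 and 25.4 FPKM in ICAM-1-/- and 9.59, 22.2 and 22.7 FPKM in WT replicates 1 to 3. In replicates 2 and 3 Cdh5, Lepr, Cxcl12, Col1a1 and Kdr were each at no more than 0.515 FPKM. In WT replicate 1 Col1a1 had 24.6 FPKM. The sums outside WT replicate 1 are therefore mostly Pecam1. None of the tested genes in these lists, in the LSK marker list or in the list of genes used by every cell was called. Their median differences were -0.25 for erythroblast, -1.02 for mature myeloid, -0.68 for lymphocyte, -0.29 for stromal and endothelial, -0.12 for macrophage and 0.08 for LSK markers, and 0.32 for genes used by every cell. Of the last list, which includes Gapdh, 3 of 10 were listed at 0 in WT replicate 1 and 1 of 10 in ICAM-1-/- replicate 1.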

How the data were processed

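Gene-level FPKM values of 6 libraries were deposited by the authors as 1 table. Per the labels' protocols, LSK RNA was isolated using Trizol and sequenced from Illumina TruSeq libraries. The submitters' processing notes list cutadapt, TopHat2 2.0.11 and Cufflinks 2.1.1. No build, annotation or strand setting is given in the sources used here. FPKM keep no counts, and positive values under 0.001 (24 to 111 per library) are not whole reads, so depth and counting error are unknown.

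Groups and replicate numbers came from the sample titles. Genes averaging 1 FPKM or more (10477) were analysed as log2(FPKM + 1) with limma 3.58.1 in R 4.3.3, with group as the only term, a trend of variance on mean level, and Benjamini-Hochberg adjustment over all of them at 0.05. Changes of low genes are understated on that scale. The fit was tested on simulated data. Same-numbered libraries deviated from their group means together (correlations 0.35, 0.13 and 0.31), so the numbers were taken to pair the samples, by this check alone, and a fit with that block was added. ICAM-1-/- replicate 3 deviated as closely with WT replicate 2 (0.31), and ICAM-1-/- replicate 2 more closely with WT replicate 3 (0.15).

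The members and lists were chosen with earlier results of these data known. Values are given for the MCM2-7 subunits, for up to 3 members of smallest p in each other role, and for members whose groups do not overlap; in other lists for up to 2 genes of smallest p and for Mki67, Ccne2, Rrm2 and Dbf4. Other genes named were chosen after their values were seen. Shared 31-base words and overlaps came from GENCODE M21. Alternatives covered pseudocount, filter, scaling, small RNA genes, trend, library weights, block, near-zero values and libraries left out.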

Additional observations from a re-analysis of the deposited data

How the results depend on the processing

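No replication gene was called under any of the 15 alternatives, where the smallest limma adjusted p of a member was 0.919. Of the 26 members given library by library with a difference and SE, 5 kept its sign in all 15: Cdc45 (0.73 to 3.53), Gins1 (-1.61 to -0.28), Gins3 (0.31 to 2.32), Pola2 (0.60 to 0.98) and Prim2 (0.028 to 1.63). The count of genes called by limma among all tested was 0 as reported, 4 with library weights, 13 with the replicate number as a block, 18 in replicates 2 and 3 only, and 0 to 2 with each library left out in turn. With the block no member was called and no sign turned. Genes with an unadjusted limma p under 0.05 rose with it from 54 to 278 of all tested. Among the 41 members they rose from 0 to 1. A pseudocount of 0.1, no filter and no trend turned no sign. For the signs that turned, the cause was not tested. Fits with a library left out or values set missing show only that a sign depended on them. FPKM without counts give no limit of detection.

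In replicates 2 and 3 the members' median moved to -0.30, and Mcm2 (-0.30), Mcm5 (-0.41), Mcm6 (-0.081), Orc1 (-0.33), Orc4 (-0.50), Orc6 (-0.65), Cdc6 (-0.038), Gmnn (-0.97), Pole (-0.30), Rfc3 (-0.54), Rfc2 (-0.16), Rpa3 (-0.59), Rpa1 (-0.027) and Rpa2 (-0.0043) turned negative and Lig1 (0.12) positive. With values under 0.001 FPKM missing, which drops WT replicate 1 for these genes, Orc1 (-0.019), Orc4 (-0.83), Orc6 (-0.89), Gmnn (-0.35), Rfc3 (-0.12) and Rpa3 (-0.085) turned negative. Median-of-ratios scaling turned Mcm3 (0.24), Mcm4 (0.079), Cdt1 (0.056) and Lig1 (0.23). It moved the members' median to 0.45 and the median of all genes to 0.25. Leaving out small RNA genes turned Mcm5 (-0.024) and Rpa2 (-0.056). Library weights turned Mcm3 (0.37), Mcm4 (0.15), Orc4 (-0.67), Cdt1 (0.50), Rfc5 (0.065), Fen1 (0.41), Lig1 (0.14), Rpa1 (-0.36) and Rpa2 (-0.12).

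With each library left out in turn the differences ranged from -0.10 to 0.69 for Mcm2, -0.47 to 0.65 for Mcm3, -0.21 to 0.61 for Mcm5, -0.13 to 0.48 for Mcm6, -0.017 to 0.85 for Mcm7, -0.019 to 1.08 for Orc1, -0.83 to 1.21 for Orc4, -0.89 to 1.04 for Orc6, -0.35 to 2.28 for Gmnn, -1.08 to 1.10 for Cdt1, -0.12 to 1.98 for Rfc3, -0.89 to 0.0051 for Rfc5, -0.93 to 0.25 for Fen1, -0.22 to 0.11 for Lig1, -0.085 to 2.60 for Rpa3, -0.22 to 0.69 for Rpa1 and -0.16 to 0.20 for Rpa2. The members' median was -0.085 without WT replicate 1, 0.62 without ICAM-1-/- replicate 2 and 0.013 without ICAM-1-/- replicate 3, where those of all genes were -0.16, 0.47 and -0.20.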
